A study of Mus musculus with 9 samples.

Results

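Transcript levels of 10 cardiac transcription factor genes, Gata4, Gata5, Gata6, Hand2, Nfatc1, Tbx20, Tbx2, Tbx3, Nkx2-5 and Isl1, were measured in 3 sorted endothelial populations of the fetal mouse heart. The genes were chosen by symbol, as regulators known from the endocardium and from heart development, out of the 41214 features of the deposited count table. The choice was made with earlier results of these data known. A total of 9 of the 10 passed the filter on low counts, together with 17103 genes in all, and Nkx2-5 did not. Ventricles came from embryos at embryonic stage E17.5 that carried a Nes-Gfp transgene (Tg/0), a Nes-CreER transgene (Tg/0) and a tdTomato allele at R26 (tom/+), and that had been exposed to 0.1 µg tamoxifen at E15.5. All 3 populations shared this genotype and treatment. Both GFP and the tamoxifen-dependent Cre were driven by the promoter of Nes, the nestin gene, so these reporters mark cells in which that promoter was active. Viable cells negative for Ter119 and CD45 and positive for CD31, an endothelial surface protein, were divided into an endocardial population that was positive for GFP, an arterial-enriched population of intramyocardial arteries and capillaries that was low for Emcn (endomucin) and positive for Tomato, and a venous-enriched subepicardial population that was low for Emcn, negative for Tomato and low for GFP. The labels name no Emcn or Tomato condition for the endocardial gate. Each population had 3 libraries. The replicate numbers equal a batch number in the labels, and the labels do not say whether the libraries came from separate animals, so the p-values reflect library-to-library variation that could be technical.

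The endocardium is the endothelial lining of the heart chambers, and part of it gives rise to the cushions from which the valves form. GATA factors are zinc-finger proteins that bind the motif for which they are named and work with Fog cofactors, T-box factors and Hand proteins during heart development. Hand2 is a basic helix-loop-helix protein that binds E-boxes with E-protein partners, NFATc1 is moved to the nucleus after dephosphorylation by calcineurin and is a classical marker of endocardium, Tbx20 acts in chamber and valve development, Tbx2 and Tbx3 are T-box repressors of the atrioventricular canal and conduction system, and Nkx2-5 and Isl1 mark cardiac progenitors, with Nkx2-5 also present in heart muscle.

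The sequences before the starts of Gata5, Hand2 and Tbx20 are shown because they belong to members with large differences between the populations and can be set beside the factors measured here. They are from RefSeq on GRCm38.p6, where 5 members matched a promoter entry, and are written 5′ to 3′ on the gene's own strand, with matches to the searched motifs in capitals. The Gata5 window is chr2:180334700-180334929 (minus strand), shortened by 20 bases that lie in its own exon, the Hand2 window is chr8:57320733-57320982 (plus strand) and the Tbx20 window is chr9:24774304-24774553 (minus strand).
Gata5: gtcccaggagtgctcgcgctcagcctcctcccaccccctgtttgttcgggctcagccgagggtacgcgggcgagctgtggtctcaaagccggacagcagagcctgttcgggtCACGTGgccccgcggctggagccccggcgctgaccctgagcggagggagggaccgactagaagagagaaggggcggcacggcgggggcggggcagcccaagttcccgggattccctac
Hand2: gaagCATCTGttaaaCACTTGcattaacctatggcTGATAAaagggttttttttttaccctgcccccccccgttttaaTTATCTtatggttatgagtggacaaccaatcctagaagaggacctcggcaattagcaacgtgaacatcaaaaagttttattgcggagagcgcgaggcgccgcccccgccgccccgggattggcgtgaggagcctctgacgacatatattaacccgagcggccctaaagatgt
Tbx20: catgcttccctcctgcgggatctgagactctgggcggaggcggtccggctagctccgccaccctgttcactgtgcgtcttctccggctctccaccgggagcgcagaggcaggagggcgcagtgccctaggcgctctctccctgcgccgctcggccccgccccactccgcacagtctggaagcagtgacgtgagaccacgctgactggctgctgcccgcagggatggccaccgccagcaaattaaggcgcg
Searched on both strands were the GATA motif (GATA with A or T before it and A or G after it), the E-box (CANNTG), a T-box half-site (AGGTGT) and an NFAT core (GGAAAA). The Hand2 window held GATA matches at 215 and 172 bases before the RefSeq start and E-box matches at 246 and 235 bases before it, with no overlap between the kinds. The Gata5 window held 1 E-box, 138 bases before the RefSeq start, and the Tbx20 window held no match. Of 32851 promoter windows of 250 bases, 26.5% held a GATA match, 66.2% an E-box, 11.8% a T-box half-site and 20.4% an NFAT core. The Gata5 and Tbx20 windows were rich in G and C (70.4% and 68.8%), whereas that of Hand2 was at 49.2%. A match is a string of letters and not evidence of binding.

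Totals per library ranged from 12750553 to 19474419 estimated reads, and levels are given as CPM, which are counts scaled to a common library total. At this depth, 3 counts were worth between 0.153 and 0.228 CPM, which is the level that a count of 0 allows, covering counting error only. The arterial and venous libraries detected 18462 to 21221 genes, while endocardial replicate 1 detected 21101 against 17337 and 17130 in the other endocardial libraries, so that replicate stands apart from its group. Replicate 1 also detected the most genes in the coronary populations, by smaller margins. The counts were 21221 against 19610 and 20359 in arterial-enriched and 19755 against 19299 and 18462 in venous-enriched libraries. The fits without endocardial replicate 1 were run for the member results and the counts of calls, not for the list genes named. Of 16 endocardial marker genes, 15 were higher in the endocardial than in the arterial-enriched population, 14 were higher than in the venous-enriched population and none was lower. Emcn is among the 16, and both coronary gates were low for Emcn, so its result follows at least in part from the sort. The list was also chosen with earlier results of these data known, so these counts are not an independent check of the labels. Between the coronary populations 9 of the 16 were lower and none higher in arterial-enriched cells (median log2 fold change -1.96), so these markers had the same order of populations as Gata4, Gata5 and Hand2 had by their means, and their part in those levels was not tested. Npr3, a natriuretic peptide receptor of the endocardium, reached 2317 ± 203 CPM in the endocardial libraries (SD, n = 3), against 25.7 ± 10.04 in the arterial-enriched and 49.0 ± 14.2 in the venous-enriched libraries. Pecam1, which encodes CD31, averaged 753 CPM in endocardial, 1129 in arterial-enriched and 934 in venous-enriched libraries, and Cdh5, the endothelial cadherin gene, 917, 1642 and 1558 CPM. Of 12 pan-endothelial markers, 5 (Kdr, Esam, Robo4, Cdh5 and Pecam1) were lower and 2 (Emcn and Tek) higher in endocardial than in arterial-enriched cells. Against venous-enriched cells 4 were lower and the same 2 higher, and Pecam1 was not called. In sorted bulk samples such as these, fewer cells of a type and less RNA per cell cannot be told apart.

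The first question was which of the factors set the endocardial lining apart from the coronary vessels of the same ventricles. Gata4, Gata5, Gata6, Hand2, Nfatc1 and Tbx20 were higher in the endocardial than in the arterial-enriched population, while Tbx2 and Tbx3 were lower. Against the venous-enriched population, Gata6, Hand2 and Nfatc1 were higher and Tbx3 was lower. Between the coronary populations, Tbx20 alone passed the test, with the lower level in the arterial-enriched cells. Each population enters 2 of the 3 comparisons, so they share libraries. These calls are from edgeR's quasi-likelihood test over all genes, at a Benjamini-Hochberg adjusted p under 0.05. Because the members were chosen with earlier results of these data known, the medians and shares over all genes below describe and do not test them. The median log2 fold change of the 9 tested members was 2.21 for endocardial minus arterial, 1.25 for endocardial minus venous and -0.33 for arterial minus venous, beside medians over all genes of -0.01, 0.10 and 0.03. Against the arterial-enriched cells 8 members were called, and over all 17103 genes the same comparison called 11.7% (5.75% higher and 5.92% lower). Against the venous-enriched cells 4 members were called, where 10.2% of all genes were (4.44% higher and 5.81% lower). For arterial minus venous 1 member was called, where 1.07% of all genes were (0.31% higher and 0.76% lower). The libraries did not overlap between the groups for 8, 8 and 5 of the 10 genes in these comparisons, in the same order, and for 25.6%, 28.2% and 17.3% of all genes tested. The working name of the set, endocardial transcription factors, therefore went against the data for Tbx2, Tbx3, Nkx2-5 and Isl1, which were low or near 0 in the endocardial libraries, and for Tbx20, whose highest mean was in the venous-enriched libraries.

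**Figure D1:**
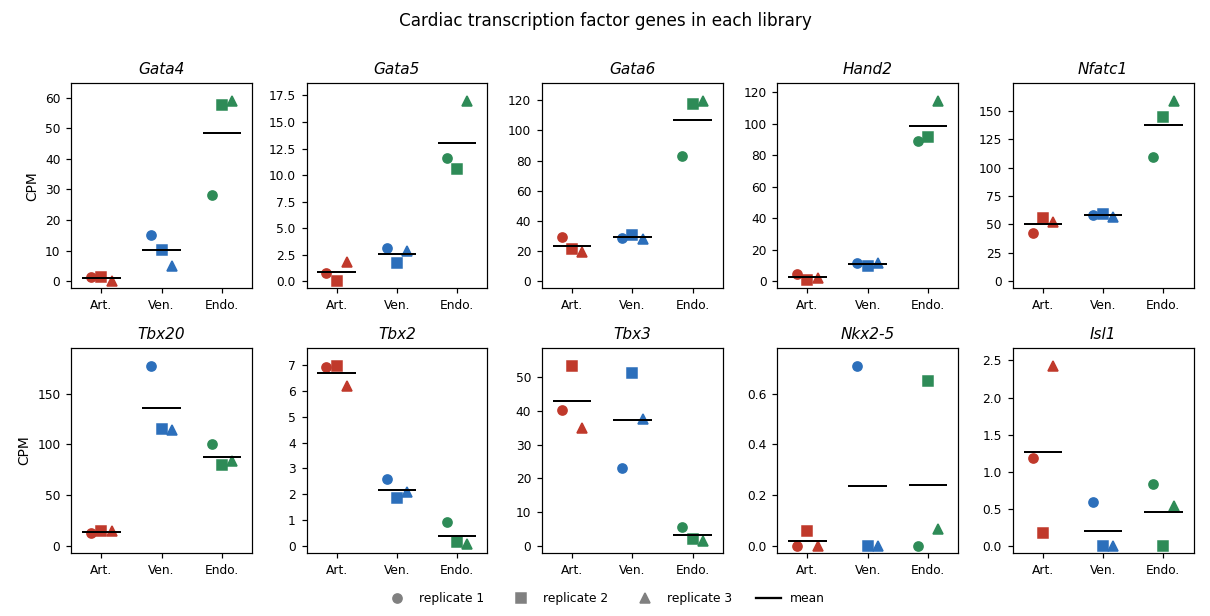
Level of each gene in CPM (vertical axes, from 0, a separate scale for each gene) in the arterial-enriched (Art.), venous-enriched (Ven.) and endocardial (Endo.) libraries, with 1 marker shape per replicate number and a black line at the mean of the 3 libraries. Gata4, Gata5, Gata6, Hand2 and Nfatc1 have their 3 highest libraries in the endocardial group, Tbx20 has its highest in the venous-enriched group, and Tbx2 and Tbx3 have their lowest in the endocardial group.

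**Figure D2:**
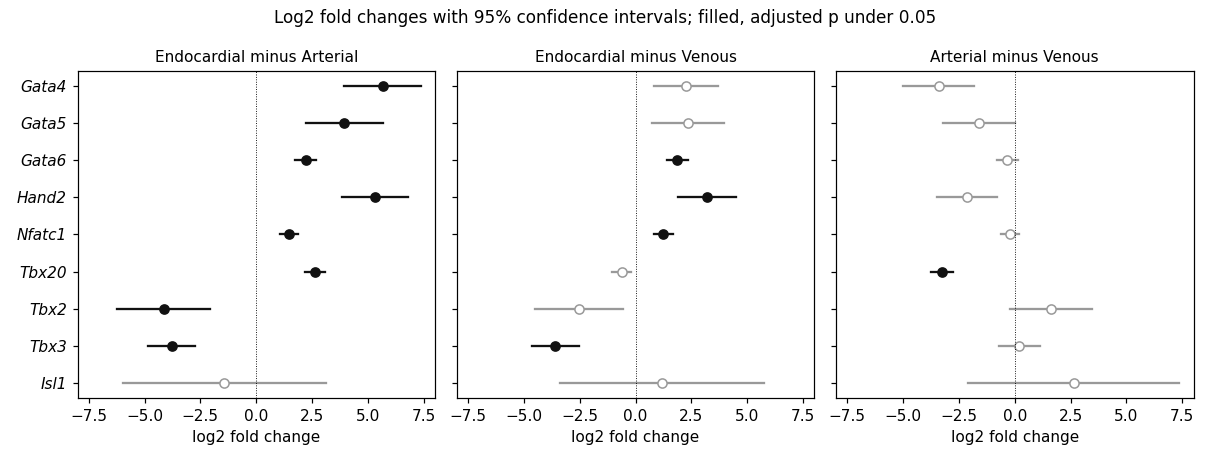
Log2 fold changes (horizontal axes) of the 9 tested genes in each comparison, as points with 95% confidence intervals as lines. Filled points passed an adjusted p of 0.05, which holds for 8 genes in the endocardial minus arterial panel, 4 in the endocardial minus venous panel and 1 in the arterial minus venous panel.

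Gata4 encodes a zinc-finger activator needed for heart tube and septum formation and lies at chr14:63198922-63271692 on the minus strand (GRCm38). Its levels were 28.3, 57.7 and 58.9 CPM in the endocardial libraries, 1.47, 1.27 and 0.0735 CPM in the arterial-enriched libraries and 15.3, 10.1 and 5.12 CPM in the venous-enriched libraries, in the order of replicates 1 to 3. The 3 groups did not overlap, the arterial-enriched libraries being lowest, with 1 count in replicate 3, and the venous-enriched ones between the others. Endocardial cells had 50.6-fold more Gata4 than arterial-enriched cells (log2 fold change 5.66 ± 0.77 SE, adjusted p = 0.00069). Against venous-enriched cells the log2 fold change was 2.25 (95% interval 0.83 to 3.67) and missed the threshold at an adjusted p of 0.0532, with a range of 4.48e-08 to 0.249 over the alternative settings. It passed without arterial-enriched replicate 3, the library with the lowest value (adjusted p = 0.00134). The arterial minus venous log2 fold change was -3.41 (95% interval -5.01 to -1.81, adjusted p = 0.0684), and -2.89 without arterial-enriched replicate 3, where it passed (adjusted p = 0.00952). Over its alternatives the adjusted p ran from 7.54e-14 to 0.347.

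Gata5, a relative known for endocardial and aortic valve development, lies at chr2:180325133-180334699 on the minus strand. Endocardial levels were 11.6, 10.6 and 17 CPM, arterial-enriched levels 0.737, 0.0576 and 1.76 CPM and venous-enriched levels 3.14, 1.73 and 2.82 CPM. Every endocardial library was above every coronary library, while one arterial-enriched library fell among the venous-enriched ones. Endocardial cells had 15.4-fold more Gata5 than arterial-enriched cells (log2 fold change 3.94 ± 0.82 SE, adjusted p = 0.0033), a log2 difference of 5.08 without arterial-enriched replicate 3. The endocardial minus venous log2 fold change of 2.35 (95% interval 0.75 to 3.94) missed the threshold at an adjusted p of 0.0596. With the replicate number as a block it was 2.38 and passed (adjusted p = 0.0329), as it did without arterial-enriched replicate 2 (0.012) or 3 (0.026). Over all its alternatives the adjusted p ran from 0.00548 to 0.195. For arterial minus venous the log2 fold change was -1.60 (95% interval -3.22 to 0.03, adjusted p = 0.597), and -2.74 without arterial-enriched replicate 3 (adjusted p = 0.248).

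Gata6 had the smallest differences of the GATA members and lies at chr18:11052064-11085635 on the plus strand. Its product acts beside GATA4 in heart muscle, outflow tract and vessel development. Endocardial libraries held 83.3, 117 and 119 CPM, arterial-enriched libraries 29.0, 21.0 and 19.4 CPM and venous-enriched libraries 28.5, 30.7 and 28.0 CPM. The lowest endocardial library was well above the highest coronary one, and the coronary groups overlapped. Endocardial cells had 4.61-fold more Gata6 than arterial-enriched cells (adjusted p = 3.41e-06) and 3.67-fold more than venous-enriched cells (adjusted p = 2.59e-05). The coronary groups differed by -0.33 on the log2 scale (95% interval -0.79 to 0.13, adjusted p = 0.776).

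For a rough comparison between genes, levels were divided by exon length, counted as all bases in any annotated exon of the gene. A gene whose expressed transcript is shorter than this comes out too low. The summed level of Gata4, Gata5 and Gata6 was 23.6 to 38.6 CPM per kilobase in endocardial libraries, 3.54 to 5.05 in arterial-enriched and 6.47 to 9.25 in venous-enriched libraries. Gata6 made up 47.5% to 54.2% of that sum in endocardial libraries, 47.4% to 66.5% in venous-enriched libraries and 84.3% to 90.4% in arterial-enriched libraries. The arterial-enriched cells thus held Gata6 with little Gata4 or Gata5 beside it. Among all 6 GATA genes, Gata2, the endothelial and blood GATA factor, accounted for 22.5% to 29.2% of the endocardial, 53.9% to 68.7% of the arterial-enriched and 39.1% to 46.9% of the venous-enriched sum. The GATA relatives and Fog cofactors, 4 of 5 tested, had 2 members higher and none lower in endocardial cells against either coronary population. Gata3 stood at 10.5 ± 1.97 CPM in endocardial, 2.45 ± 1.37 in arterial-enriched and 2.26 ± 0.628 in venous-enriched libraries. It was higher by 2.09 on the log2 scale against the arterial-enriched cells (adjusted p = 0.0299) and by 2.21 against the venous-enriched cells (adjusted p = 0.0248). Gata2 was higher by 0.67 and 0.90 on the log2 scale (adjusted p = 0.0371 and 0.00663). The Fog genes Zfpm1, at 25.4, 11.8 and 13.1 CPM in endocardial, arterial-enriched and venous-enriched cells, and Zfpm2, at 22.5, 11.8 and 21.1 CPM, were not called.

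Hand2 lies at chr8:57320983-57324633 on the plus strand, and its product is needed in the outflow tract, right ventricle and endocardium. It stood at 88.7, 91.5 and 114 CPM in endocardial, 4.86, 0.461 and 2.13 CPM in arterial-enriched and 11.4, 9.32 and 11.4 CPM in venous-enriched libraries. No groups overlapped, and the arterial-enriched libraries were the lowest. Endocardial cells had 40.1-fold more Hand2 than arterial-enriched cells (log2 fold change 5.32 ± 0.65 SE, adjusted p = 0.000576), and the log2 difference was 6.28 without arterial-enriched replicate 1. Against venous-enriched cells the difference was 9.17-fold (log2 fold change 3.20 ± 0.58 SE, adjusted p = 0.00727). That call was lost when venous-enriched replicate 1, 2 or 3 was left out (adjusted p = 0.0653, 0.0723 and 0.0787), with log2 fold changes of 3.23, 3.10 and 3.23, and over all alternatives the adjusted p ran from 1.1e-16 to 0.0787. For arterial minus venous the log2 fold change was -2.13 (95% interval -3.47 to -0.78, adjusted p = 0.246). It was -3.09 without arterial-enriched replicate 1 (adjusted p = 0.00201) and -1.66 without replicate 2 (adjusted p = 0.0187), and the adjusted p ran from 5.69e-08 to 0.817 over the alternatives.

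Hand2os1, a noncoding gene on the opposite strand that spans chr8:57281117-57324233 and shares exonic bases with Hand2, was examined after its values were seen. Its levels were 125, 115 and 70.0 CPM in endocardial, 2.95, 0.979 and 1.76 CPM in arterial-enriched and 6.45, 4.82 and 5.73 CPM in venous-enriched libraries. It was higher in endocardial cells by 5.78 ± 0.39 (SE) on the log2 scale against the arterial-enriched cells (adjusted p = 3.12e-08) and by 4.19 ± 0.35 against the venous-enriched cells (adjusted p = 7.11e-07). It was also lower in arterial-enriched than in venous-enriched cells (log2 fold change -1.59, adjusted p = 0.0356). Whether the counting used strand is not given in the sources used here, so reads of Hand2 and Hand2os1 from the shared bases cannot be told apart. The opposite-strand gene at Gata6, 1010001N08Rik, which also shares exonic bases with it, was at 5.29 to 7.10 CPM in endocardial libraries and at most 2.43 CPM elsewhere. It was not called against arterial-enriched (log2 fold change 1.86, adjusted p = 0.184) or venous-enriched cells (2.34, adjusted p = 0.0909). Gata5os did not exceed 3.82 CPM and Tbx3os1 did not exceed 0.958 CPM in any library.

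Among Hand, Nkx2 and LIM-homeobox relatives and partners, 10 of 16 were tested. Against the arterial-enriched cells 1 was higher and 2 were lower in endocardial cells, and against the venous-enriched cells 1 was higher and 3 were lower. The higher gene was Lmo4, a LIM-only adaptor, at 253 ± 28.0 CPM in endocardial, 33.2 ± 4.63 in arterial-enriched and 48.5 ± 6.77 in venous-enriched libraries. It differed by 2.93 and 2.38 on the log2 scale (adjusted p = 2.41e-08 and 3.89e-07). The E-protein genes Tcf4 and Tcf12, which encode basic helix-loop-helix partners, were lower in endocardial cells in both comparisons. Tcf4 averaged 396 CPM in endocardial, 953 in arterial-enriched and 809 in venous-enriched libraries (log2 fold changes -1.27 and -1.03, adjusted p = 9.29e-06 and 0.000114). Lhx6, a LIM-homeobox gene, was lower than in venous-enriched cells (5.88 against 23.4 CPM, adjusted p = 0.00631). Hand1, the other Hand gene, averaged under 1 CPM in every population.

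Nfatc1 lies at chr18:80606205-80713071 on the minus strand. Endocardial levels were 109, 145 and 159 CPM, arterial-enriched levels 42.0, 56.0 and 52.2 CPM and venous-enriched levels 58.5, 58.8 and 56.4 CPM. The endocardial libraries were all above the coronary ones, yet Nfatc1 was present in every coronary library and its difference was the smallest among the called members that were higher. Endocardial cells had 2.74-fold more than arterial-enriched cells (log2 fold change 1.46 ± 0.20 SE, adjusted p = 5.85e-05) and 2.37-fold more than venous-enriched cells (1.25 ± 0.19 SE, adjusted p = 0.000357). The coronary groups differed by -0.21 on the log2 scale (95% interval -0.62 to 0.20, adjusted p = 0.882).

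Of 13 other NFAT and calcineurin pathway genes, all tested, 4 were higher in endocardial cells and none lower against either coronary population, and the 4 were Nfatc2, Nfat5, Rcan1 and Ppp3ca in both. The list's median log2 fold change was 0.31 against arterial-enriched and -0.05 against venous-enriched cells, beside -0.01 and 0.10 over all genes. Nfatc2, an NFAT protein under calcineurin control like NFATc1, was at 32.3, 44.1 and 33.9 CPM in endocardial libraries, 9.58, 4.09 and 4.41 CPM in arterial-enriched libraries and 4.85, 5.80 and 3.99 CPM in venous-enriched libraries. Its log2 fold changes were 2.61 and 2.91 (adjusted p = 0.000131 and 7.31e-05). Rcan1, a calcineurin regulator that is itself an NFAT target, averaged 111 CPM in endocardial against 61.3 and 67.1 CPM in arterial-enriched and venous-enriched cells (adjusted p = 0.00714 and 0.0242). Ppp3ca, a catalytic calcineurin subunit, averaged 336 against 206 and 218 CPM (adjusted p = 0.0204 and 0.0456). Nfat5, the tonicity-responsive member that calcineurin does not control, averaged 482 against 311 and 289 CPM (adjusted p = 0.00935 and 0.00354). Nfatc3, at 71.9, 77.5 and 81.4 CPM, was not called.

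Tbx20 lies at chr9:24718138-24774303 on the minus strand. It stood at 100, 80.1 and 83.8 CPM in endocardial, 13.0, 14.5 and 15.1 CPM in arterial-enriched and 177, 116 and 114 CPM in venous-enriched libraries. The arterial-enriched libraries were lowest and the venous-enriched libraries highest, with no overlap. Arterial-enriched cells had 9.57-fold less Tbx20 than venous-enriched cells (log2 fold change -3.26 ± 0.22 SE, adjusted p = 4.9e-07), the one member called between the coronary populations. Endocardial cells had 6.20-fold more than arterial-enriched cells (log2 fold change 2.63 ± 0.22 SE, adjusted p = 3.11e-07). The endocardial minus venous log2 fold change of -0.62 (95% interval -1.06 to -0.19) missed the threshold at an adjusted p of 0.0654. It was -0.61 and passed with the replicate number as a block (adjusted p = 0.0433), and was -0.73 and passed without endocardial replicate 1 (adjusted p = 0.0423). Its adjusted p ran from 0.0353 to 0.392 over the alternatives.

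Several fibroblast marker genes had the same order of levels as Tbx20. Col3a1, a fibrillar collagen gene, averaged 289 ± 18.9 CPM in endocardial, 23.3 ± 9.53 in arterial-enriched and 526 ± 68.1 in venous-enriched libraries. Its arterial minus venous log2 fold change was -4.49 (adjusted p = 1.42e-07). Col1a2 averaged 126, 9.35 and 155 CPM and Col1a1 26.7, 6.04 and 149 CPM in the same order of populations. Postn, which is in both the fibroblast and the valve list, and Pdgfra differed in having their highest level in endocardial cells, at 1047 ± 93.7 and 112 ± 10.2 CPM. Of the 15 fibroblast markers, 8 were lower and none higher in arterial-enriched than in venous-enriched cells, while 9 were higher and 1 was lower in endocardial than in arterial-enriched cells. Against the venous-enriched cells 5 were higher and 4 lower in endocardial cells. The summed level of the list was 7455 to 10329 CPM in endocardial, 4355 to 5080 in arterial-enriched and 5406 to 5872 in venous-enriched libraries, with Dpep1 at 0 in all arterial-enriched libraries. Fn1, one of the listed genes, alone averaged 4937 CPM in endocardial, 813 in arterial-enriched and 949 in venous-enriched libraries, so the sum does not stand for each marker. Tcf21, a defining fibroblast regulator, averaged 1.17, 0.412 and 4.84 CPM and was not called. The part of fibroblast transcripts in the Tbx20 difference was not tested.

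**Figure D3:**
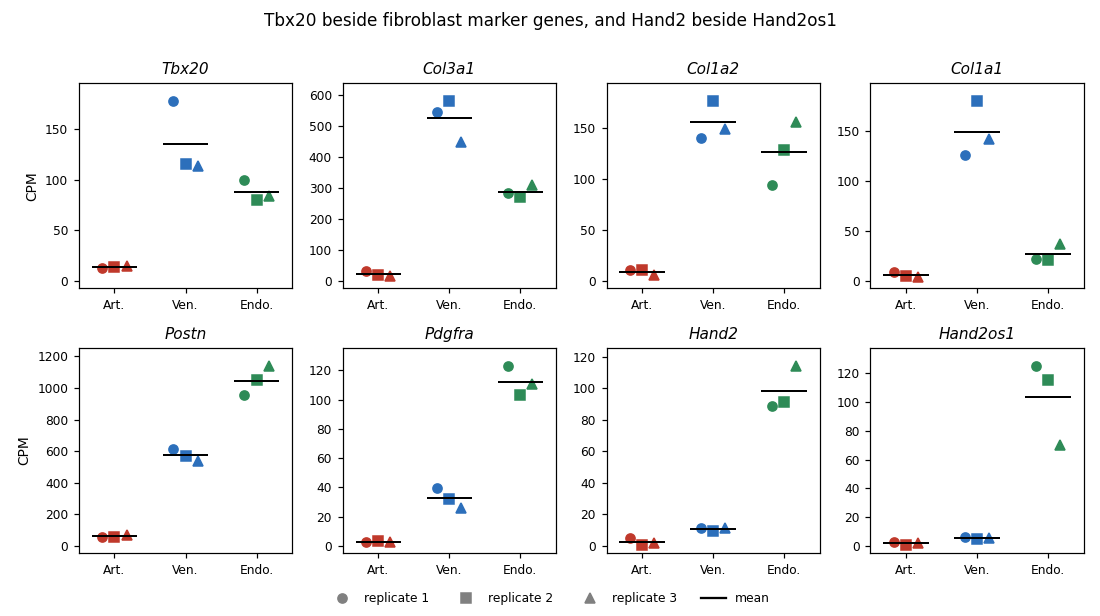
Levels in CPM (vertical axes, from 0, a separate scale for each gene) of Tbx20, the fibroblast markers Col3a1, Col1a2, Col1a1, Postn and Pdgfra, Hand2 and its opposite-strand neighbour Hand2os1 in each library, with lines at the means. Tbx20 and the 3 collagen genes are lowest in the arterial-enriched and highest on average in the venous-enriched libraries, and Hand2 and Hand2os1 are both highest in the endocardial libraries.

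Tbx2 and Tbx3 had their lowest levels in the endocardial population. Tbx2, at chr11:85832551-85841948 on the plus strand, stood at 0.917, 0.144 and 0.0679 CPM in endocardial libraries, which are 12, 2 and 1 counts. Arterial-enriched libraries held 6.93, 6.97 and 6.18 CPM and venous-enriched libraries 2.60, 1.85 and 2.10 CPM. The groups did not overlap, and 2 of the 3 endocardial libraries were under the floor. Tbx2 was lower in endocardial than in arterial-enriched cells (log2 fold change -4.14 ± 0.98 SE, adjusted p = 0.00907), and by -5.89 without endocardial replicate 1. For endocardial minus venous the log2 fold change was -2.53 (95% interval -4.50 to -0.56, adjusted p = 0.108). Without endocardial replicate 1 it was -4.28 and passed (adjusted p = 0.00943), and the adjusted p ran to 0.301 at most over the alternatives. The arterial minus venous log2 fold change was 1.61 (95% interval -0.22 to 3.45, adjusted p = 0.672).

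Tbx3, at chr5:119670669-119684724 on the plus strand, stood at 5.73, 2.02 and 1.56 CPM in endocardial, 40.2, 53.3 and 34.9 CPM in arterial-enriched and 23.0, 51.2 and 37.5 CPM in venous-enriched libraries. The coronary groups overlapped, and every endocardial library was below both. Endocardial cells had 13.9-fold less Tbx3 than arterial-enriched cells (log2 fold change -3.79 ± 0.48 SE, adjusted p = 0.000134) and 12.0-fold less than venous-enriched cells (-3.59 ± 0.48 SE, adjusted p = 0.000278). Without endocardial replicate 1, whose level was the highest of its group, these log2 fold changes were -4.58 and -4.38. Between the coronary groups the log2 fold change was 0.20 (95% interval -0.71 to 1.12, adjusted p = 0.969).

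Of 12 other T-box genes 8 were tested, and 1 was called in 1 comparison. This was T (brachyury), the founding T-box gene, which was lower in endocardial than in arterial-enriched cells (log2 fold change -6.73 ± 1.34 SE, adjusted p = 0.00232). Its levels were 0.153, 0 and 0 CPM in endocardial, 6.56, 6.80 and 4.85 CPM in arterial-enriched and 0.710, 0.679 and 1.28 CPM in venous-enriched libraries. The endocardial values of T were 2, 0 and 0 counts, under the floor, so the size of its fold change is poorly determined. By their means Tbx2 and T had the same order of populations, with the arterial-enriched cells highest. Neither was called between the coronary populations (for T, adjusted p = 0.427). Tbx5, a chamber and limb regulator, at 4.63, 1.44 and 1.52 CPM, and Tbx18, an epicardial and sinus node regulator, at 3.00, 1.75 and 9.38 CPM in endocardial, arterial-enriched and venous-enriched cells, were not called.

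Nkx2-5 and Isl1 were at or near 0. Nkx2-5, at chr17:26838664-26845009 on the minus strand, had 0, 9 and 1 counts in endocardial, 0, 1 and 0 in arterial-enriched and 12, 0 and 0 in venous-enriched libraries, so that its largest counts came from single libraries. It was not tested. Isl1, at chr13:116298281-116309689 on the minus strand, had 11, 0 and 8 counts in endocardial, 16, 3 and 33 in arterial-enriched and 10, 0 and 0 in venous-enriched libraries. Its groups overlapped in all 3 comparisons, and no difference was detectable at this depth. The endocardial minus arterial log2 fold change was -1.43 with a 95% interval from -5.98 to 3.11 (adjusted p = 0.836). It was -0.53 without arterial-enriched replicate 3, -0.84 without endocardial replicate 2 and -2.17 without endocardial replicate 1.

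Set beside each other per kilobase of exon, the members had a different order in each population. The order within a population depends on the length used, which was 11997 bases for Tbx20 and 2351 for Hand2. In endocardial cells Hand2 was highest at 41.8 ± 5.97 CPM per kilobase (SD, n = 3), followed by Nfatc1 at 18.4 ± 3.43, Gata6 at 16.4 ± 3.12, Gata4 at 12.4 ± 4.44, Tbx20 at 7.33 ± 0.883 and Gata5 at 3.98 ± 1.04. The spreads of Nfatc1, Gata6 and Gata4 overlapped, but Nfatc1 was above Gata6 and Gata6 above Gata4 in each endocardial library. The spreads of Gata4 and Tbx20 also overlapped, and their order changed between libraries. Hand2 stood above and Gata5 below their neighbours. In arterial-enriched cells Nfatc1 (6.71 ± 0.971) and Tbx3 (6.47 ± 1.43) were highest and within each other's spread, and Gata6 followed at 3.55 ± 0.786. In venous-enriched cells Tbx20 led at 11.3 ± 3.02, followed by Nfatc1 at 7.75 ± 0.173, Tbx3 at 5.62 ± 2.13, Hand2 at 4.55 ± 0.507 and Gata6 at 4.47 ± 0.219. There the spread of Tbx3 reached Nfatc1, Hand2 and Gata6, although Nfatc1 was above Tbx3 in each venous-enriched library. Hand2 and Gata6 did not differ beyond their spread, and their order changed between libraries.

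**Figure D4:**
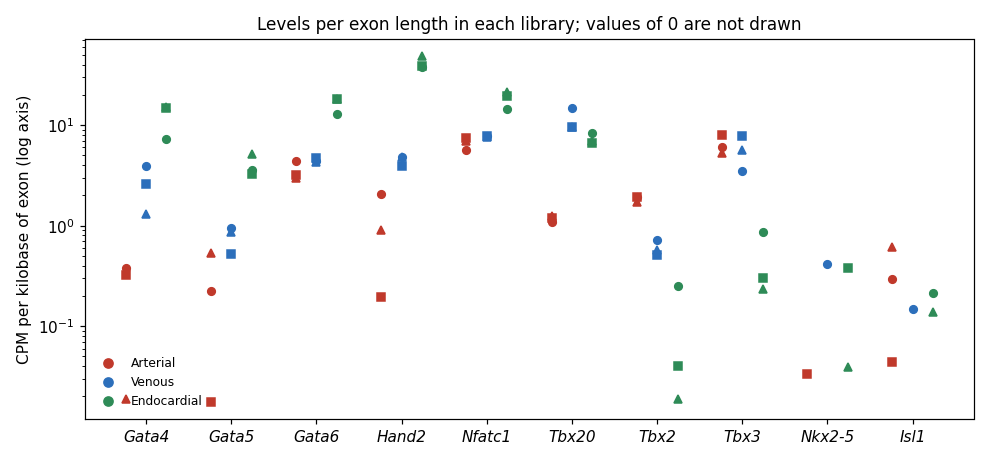
CPM per kilobase of exon (vertical log axis) of the 10 genes in each library, coloured by population, with values of 0 not drawn and 1 marker shape per replicate number. Hand2 is the highest gene in the endocardial libraries, Nfatc1 and Tbx3 lead in the arterial-enriched libraries by their means and Tbx20 leads in the venous-enriched libraries.

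Other cardiac transcription factors were compared in the same fit, with 19 of 21 tested. Against the arterial-enriched cells 6 were higher and 2 lower in endocardial cells, and against the venous-enriched cells 6 were higher and 1 lower, while none was called between the coronary populations. Among the higher genes in both comparisons were the Iroquois homeobox genes Irx3, Irx5 and Irx6 and the TALE homeobox genes Meis1 and Meis2. Irx5 stood at 28.1, 36.3 and 31.5 CPM in endocardial, 0.663, 3.17 and 1.03 CPM in arterial-enriched and 1.66, 1.61 and 1.89 CPM in venous-enriched libraries (log2 fold changes 4.28 and 4.21, adjusted p = 2.07e-05 and 3.48e-05). Meis2 averaged 120 ± 16.8 CPM in endocardial against 9.96 ± 2.87 and 18.2 ± 9.48 CPM (log2 fold changes 3.59 and 2.72, adjusted p = 7.66e-06 and 0.000103). Mef2c, a MADS-box factor of muscle and endothelium, was lower in endocardial cells in both comparisons, at 89.7 ± 10.4 against 253 ± 23.4 and 246 ± 9.21 CPM (log2 fold changes -1.50 and -1.45, adjusted p = 5.03e-06 and 1.13e-05). The zinc-finger gene Casz1 was lower than in arterial-enriched cells (6.07 against 21.4 CPM, adjusted p = 0.0461).

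**Figure D5:**
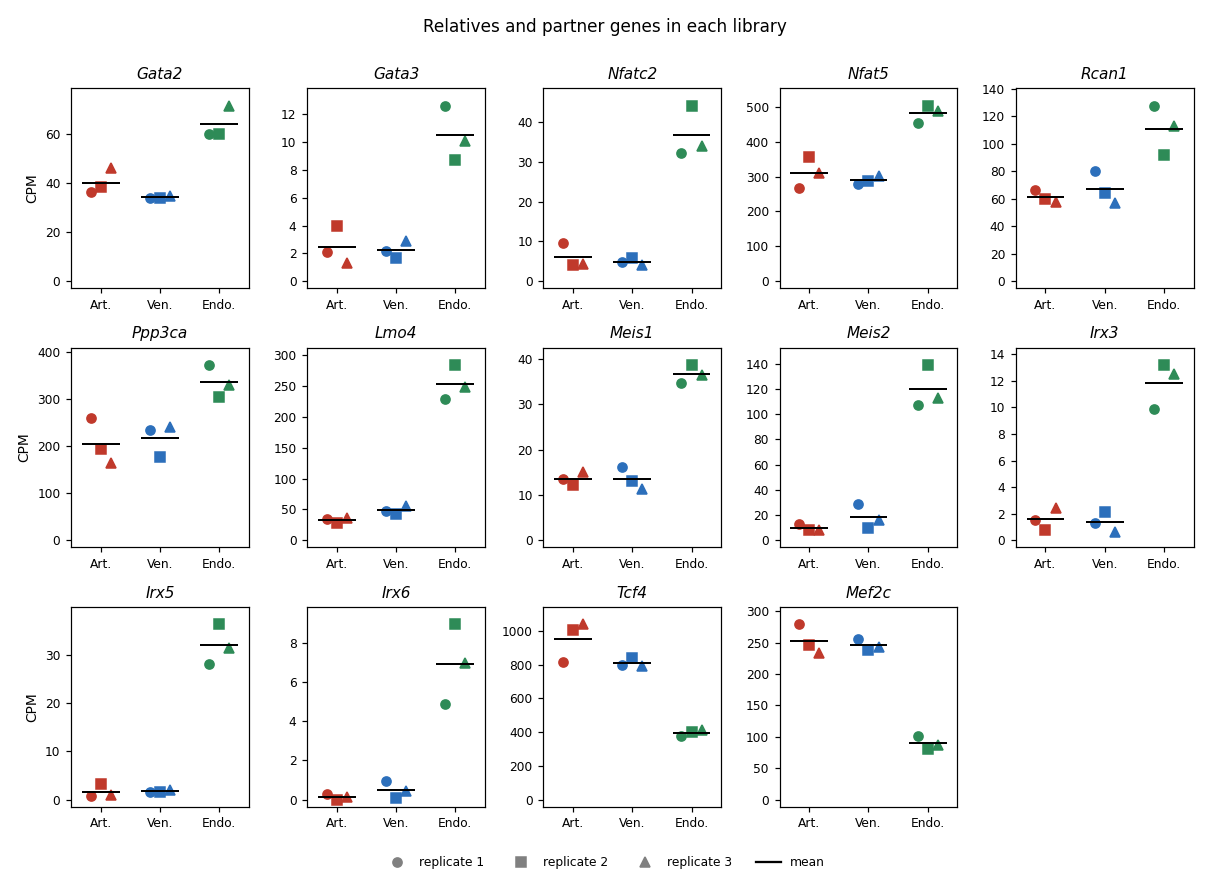
Levels in CPM (vertical axes, from 0, a separate scale for each gene) of GATA, NFAT and calcineurin relatives, Lmo4, Meis and Iroquois genes, Tcf4 and Mef2c in each library, with lines at the means. Irx5 and Meis2 are far higher in the endocardial libraries, Gata2 and Nfat5 differ less, and Tcf4 and Mef2c are lower there.

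Markers of other cell types were read in the same libraries. Cardiomyocyte markers summed to 557 to 655 CPM in endocardial, 300 to 429 in arterial-enriched and 444 to 611 in venous-enriched libraries. Of 18 tested, 4 (Actc1, Tnnt2, Myh6 and Tnni1) were higher in endocardial than in arterial-enriched cells and none was called against venous-enriched cells, with Nppb at 0 in all libraries and Nppa at 0 in the endocardial ones. Epicardial markers summed to 47.0 to 67.6 CPM in endocardial, 197 to 230 in arterial-enriched and 178 to 200 in venous-enriched libraries, and mural cell markers to 85.1 to 151, 538 to 849 and 242 to 348 CPM. Erythroid and platelet markers summed to 86.6 to 259, 544 to 1221 and 233 to 390 CPM. These 3 sums had their lowest median in the endocardial and their highest in the arterial-enriched libraries, an order shared with Tbx2. The sums rest on few genes. Of 8 epicardial markers tested, Wt1 alone was called lower in endocardial than in arterial-enriched cells, and the median log2 fold change of the list was 1.21, with the opposite sign. Of 12 mural markers, 3 (Rgs5, Abcc9 and Kcnj8) were called lower in that comparison, and against venous-enriched cells 2 were lower and Pdgfrb was higher. Of 10 erythroid and platelet markers, Hbb-bs alone was called, lower in endocardial than in arterial-enriched cells. Lymphatic markers, several of them also endothelial genes, summed to 1218 to 1742 CPM in endocardial, 267 to 425 in arterial-enriched and 405 to 611 in venous-enriched libraries. Of 10 tested, 6 (Prox1, Nr2f2, Reln, Ccl21a, Lyve1 and Mmrn1) were higher and none lower in endocardial cells against either coronary population. The list's median log2 fold changes were 4.27 against arterial-enriched and 3.08 against venous-enriched cells. Leukocyte markers summed to 5.41 to 13.3 CPM in all libraries. The part of cardiomyocyte, epicardial, mural, erythroid or lymphatic transcripts in the members' differences was not tested.

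For each tested member, the genes whose log2 CPM followed it most closely were found by Pearson's r over the 9 libraries, among 8498 genes of sufficient level. The 3 populations differ, so r mostly reflects the order of the groups, and it is given as a description. The closest gene was Mmp2 for Gata4 (r = 0.983), Tmem106c for Gata5 (0.984), Pde7b for Gata6 (0.998), Flrt2 for Hand2 (0.991) and Fn1 for Nfatc1 (0.995). For Tbx20 the 3 closest were Itm2a (0.985) and the collagen genes Col3a1 (0.977) and Col1a2 (0.958), for Tbx2 they were Ifi203 (0.985), Gsap (0.983) and Abcb1a (0.981), and for Tbx3 Rasal2 (0.985), Neil3 (0.983) and Arhgap21 (0.981). The next closest genes were Pbxip1 (0.977) and Axl (0.973) for Gata4, Emp3 (0.979) and Limk1 (0.978) for Gata5, and Phactr2 (0.993) and Col4a5 (0.992) for Gata6. For Hand2 they were Slc39a8 (0.983) and Zdbf2 (0.983), and for Nfatc1 Hmcn1 (0.994) and Adgra2 (0.991). Isl1, with few counts, gave Mmp12 (0.984), Sox1ot (0.966) and Maoa (0.956).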

How the data were processed

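RNA from sorted cells was sequenced as single reads on an Illumina HiSeq instrument after PicoPure isolation, with 1 ng of total RNA as input, per the labels' protocols. The authors deposited 1 table of expected counts per gene and library for GRCm38, in which 45.5% of the values above 0 were not whole. CASAVA 1.8.2, cutadapt 1.3 and RSEM 1.2.3 are named per the submitters' processing notes. The aligner and whether the counting used strand were not given in the sources used here. All 9 columns were assigned to samples by their labels.

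Expected counts were rounded to whole numbers, filtered with filterByExpr (minimum count 10) and scaled by TMM, and 17103 genes were tested in 1 fit over the 9 libraries with edgeR 4.0.16 (quasi-likelihood F test, robust, R 4.3.3). Adjusted p is Benjamini-Hochberg over all tested genes, with a threshold of 0.05. The 2 endocardial comparisons share their endocardial libraries, and each other pair of comparisons also shares a population. The labels' batch numbers pair the libraries. Deviations of same-numbered libraries from their group means correlated at 0.083 to 0.165 (number 1), 0.0364 to 0.146 (number 2) and between -0.0902 and 0.0924 (number 3), and a fit with the number as a block was run as an alternative. Other alternatives were DESeq2 1.42.0, RLE size factors, other filters, only the populations compared and each library left out. The test was tried on simulated data for endocardial minus arterial only, which does not cover the other comparisons, and no result here rests on it. Exon lengths, as the union of all annotated exons of a gene, and coordinates are from GENCODE M21, and promoters from RefSeq. The members and lists were chosen with earlier results of these data known. The plan was to name up to 4 called genes of smallest p and up to 2 uncalled ones from each list. For each tested member the 3 genes of highest correlation are named. The plan was not kept for every list. More genes are named from the lymphatic, pan-endothelial, cushion and valve, and other cardiac factor lists. Npr3 was not among the endocardial markers of smallest p. Further genes named (Hand2os1, the other opposite-strand genes, and further fibroblast, T-box, Hand and homeobox genes) were chosen after their values were seen. One gene among the other cardiac transcription factors is counted but not reported here by name.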

Additional observations from a re-analysis of the deposited data

How the results depend on the processing

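Of 427 alternative values for 27 member results, 398 kept their direction and their side of the threshold, 24 passed the threshold newly, 3 lost it and 2 turned direction. The turned value was the arterial minus venous difference of Tbx3, near 0 throughout, at -0.046 without arterial-enriched replicate 2 and at -0.054 without venous-enriched replicate 1, with a range of -0.054 to 0.496 over the libraries left out. With DESeq2 or without the filter on low counts, 7 members each were called for endocardial minus venous in place of 4, and 3 each for arterial minus venous in place of 1. Over all genes, arterial minus venous gave 401 calls with DESeq2 and 439 without the filter in place of 183. The causes were not tested. When each library was left out in turn, members called numbered 8 throughout for endocardial minus arterial, 3 to 6 for endocardial minus venous and 1 to 2 for arterial minus venous. Over all genes the counts were 1507 to 2251 against 1996, 1130 to 1871 against 1753 (lowest without venous-enriched replicate 3) and 120 to 225 against 183 (lowest without venous-enriched replicate 1). With the replicate number as a block, 2312, 2097 and 225 genes and 8, 6 and 1 members were called, and no member call changed other than those of Gata5 and Tbx20 in endocardial minus venous. Isl1 failed the filter under some alternatives and has no value there. Values near 3 counts per library, as for Tbx2, Nkx2-5 and Isl1, were limited by depth.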

Other observations

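Among 22 genes of endocardial cushions and valves, 6 were higher and 4 lower in endocardial than in arterial-enriched cells, 4 were higher and 3 lower than in venous-enriched cells, and 1 was higher and 4 lower in arterial-enriched than in venous-enriched cells. Vcan, the matrix proteoglycan versican, stood at 1119, 787 and 1095 CPM in endocardial, 45.3, 30.5 and 21.1 CPM in arterial-enriched and 440, 246 and 303 CPM in venous-enriched libraries. Its log2 fold changes were 4.95 ± 0.34 (SE) against arterial-enriched and 1.60 ± 0.29 against venous-enriched cells (edgeR adjusted p = 1.83e-06 and 0.00425). Tgfb2, a growth factor of cushion formation, averaged 92.5, 9.60 and 22.8 CPM in endocardial, arterial-enriched and venous-enriched cells (adjusted p = 1.16e-05 and 0.000851). The lower genes included the transcription factor genes Snai2, which averaged 13.5, 40.7 and 37.7 CPM, and Msx1, at 4.70, 23.5 and 11.4 CPM. Other transcription factor genes of the list, Snai1, Twist1, Sox9, Msx2, Prrx1, Prrx2 and Scx, were not called in either endocardial comparison. Hey1, a Notch target, was lower in endocardial cells in both comparisons (19.0 against 100.4 and 33.0 CPM) and higher in arterial-enriched than in venous-enriched cells (log2 fold change 1.60, adjusted p = 0.00101). Gja5, an arterial and conduction connexin, averaged 81.4 CPM in arterial-enriched against 4.38 and 4.40 CPM in endocardial and venous-enriched cells.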
